A study of Mus musculus with 32 samples.

Results

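The 2 control lists of ac4C peaks that were deposited with a conditional knockout, called control 1 and control 2 here, were set against the lists of group C of the series, whose peak names read Control. They were chosen by their labels: 2 control lists, 3 homogenate C lists and 3 synapse C lists, or 8 of the 16 peak lists of the series. The question was which tissue fraction the controls resemble, since their labels name none, and which genes set them apart. The controls held 4446 and 5132 peaks.

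The study asked how ac4C in the mouse hippocampus changes when animals learn, and used acRIP-seq, in which RNA fragments bound by an antibody against ac4C are sequenced beside unselected input. All 8 lists came from hippocampus of C57BL6/J mice. The homogenate C lists were from day 6, and the synapse C lists were 1 each from days 1, 6 and 20, so their spread also spans days. For the controls the labels give no day, no fraction, no deleted gene and no driver of the deletion, and the peak names inside both files begin with AAV-Cont, a prefix that no label explains. No label says that the samples came from separate animals or how many animals were pooled. The p-values therefore measure only the spread between these lists, which may be technical, and with 2 against 3 or 3 against 3 lists no exact permutation test can go below p = 0.1.

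N4-acetylcytidine is cytidine carrying an acetyl group on its base. It is made by the acetyltransferase NAT10, is long known from transfer and ribosomal RNA, and has been mapped in messenger RNA, where work in human cells tied it to RNA stability and translation. Synaptic fractions of brain hold messenger RNAs that are carried into axons and dendrites and translated there, while a homogenate holds the RNA of whole cells, nuclei included.

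Whole peaks of each control that overlapped a peak of the other were merged, which gave 2481 regions of both controls with a median width of 397 bp. A region can therefore hold bases that only 1 control covers. Of these, 1292 (52.1%) were overlapped by a peak in all 3 homogenate C lists and 657 (26.5%) in all 3 synapse C lists. All 6 lists covered 482 of them, and none of the 6 covered 161. A further 135 were in all homogenate C and no synapse C list, and 24 in all synapse C and no homogenate C list. The lists differ in length, so each was also reduced to its 4446 top-ranked peaks by the authors' q-value, the length of control 1. With these equal numbers all 3 homogenate C lists covered 710 of the regions and all 3 synapse C lists 499. At least 1 homogenate C list then covered 65.5% and at least 1 synapse C list 70.3%, against 86.9% and 78.7% as deposited, so this order turned and the other did not. Equal numbers do not equalize the bases covered. Median widths in this setting were 664, 562 and 669 bp in homogenate C and 426.5, 322 and 297.5 bp in synapse C. Homogenate C lists also overlapped each other more, at a mean of 57.6% of peaks against 33.7% in synapse C, whose lists span days.

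The 4 sequences that follow show where the controls' regions meet a gene start, with 1 example for each way a region was shared. Each is a window of 300 bases from RefSeq (GRCm38.p6, the mm10 assembly), from 250 bases before to 50 bases after an annotated start, on the strand of the gene. Capitals mark the bases inside the merged region of both controls, some of which only 1 control may cover. Nsun2, an RNA cytosine methyltransferase, was covered in all homogenate C and no synapse C list at this place (chr13:69611766-69612065, plus strand), Hnrnpl, a splicing regulator, in all synapse C and no homogenate C list (chr7:28810640-28810939, plus strand), Add2, a cytoskeletal adducin, in none of the 6 (chr6:86028431-86028730, plus strand) and Hnrnpd, a protein that binds AU-rich RNA, in all 6 (chr5:99978889-99979188, minus strand).
Nsun2: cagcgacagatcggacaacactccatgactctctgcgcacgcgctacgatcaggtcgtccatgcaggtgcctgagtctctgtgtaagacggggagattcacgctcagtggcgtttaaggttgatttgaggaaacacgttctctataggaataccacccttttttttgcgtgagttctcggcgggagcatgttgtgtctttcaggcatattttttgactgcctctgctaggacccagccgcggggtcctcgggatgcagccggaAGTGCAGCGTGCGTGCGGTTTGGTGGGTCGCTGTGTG
Hnrnpl: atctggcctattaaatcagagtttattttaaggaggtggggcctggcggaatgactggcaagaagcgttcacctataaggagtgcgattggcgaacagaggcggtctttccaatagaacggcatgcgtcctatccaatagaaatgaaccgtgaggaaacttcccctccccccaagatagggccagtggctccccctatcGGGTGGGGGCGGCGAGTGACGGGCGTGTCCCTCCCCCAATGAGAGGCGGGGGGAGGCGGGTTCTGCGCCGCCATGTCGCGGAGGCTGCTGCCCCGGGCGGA
Add2: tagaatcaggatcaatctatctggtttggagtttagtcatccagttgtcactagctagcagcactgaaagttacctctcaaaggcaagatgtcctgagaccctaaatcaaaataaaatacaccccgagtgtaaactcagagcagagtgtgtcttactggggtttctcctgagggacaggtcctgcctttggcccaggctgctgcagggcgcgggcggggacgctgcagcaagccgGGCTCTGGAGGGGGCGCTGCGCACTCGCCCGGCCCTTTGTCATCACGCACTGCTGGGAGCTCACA
Hnrnpd: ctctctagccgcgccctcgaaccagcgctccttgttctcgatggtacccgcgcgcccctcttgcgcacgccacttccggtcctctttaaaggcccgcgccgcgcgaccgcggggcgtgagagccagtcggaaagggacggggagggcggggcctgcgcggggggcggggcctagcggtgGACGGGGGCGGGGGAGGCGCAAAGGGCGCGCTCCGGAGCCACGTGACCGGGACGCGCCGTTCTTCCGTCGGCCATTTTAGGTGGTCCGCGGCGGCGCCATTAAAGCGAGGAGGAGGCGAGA
The region covered 37 bases of the Nsun2 window, 101 of Hnrnpl, 65 of Add2 and 121 of Hnrnpd. Counted over all 32851 start windows used, the median GC content was 52.7%, against 66.0% in the 746 windows that control 1 covered and 67.7% in the 1153 of control 2. Windows under homogenate C peaks stood at 64.3% in each list and those under synapse C peaks at 67.0% to 68.7%, so windows under the peaks of all 8 lists were GC-rich. Cytidines spaced 3 bases apart have been described around ac4C, and the spaced motif CNNCNNCNNC was therefore searched on the strand of the gene in the 50 bases after the start. It was present in 22.1% of all windows, in 35.1% and 36.0% of those under control peaks, in 32.5% to 33.2% under homogenate C peaks and in 35.3% to 37.5% under synapse C peaks. On either strand it was in 44.6% of all windows and 71.7% and 72.0% of those under control peaks. The motif search is a description of letters in these windows, which also differ in GC content. The 17 windows under regions that none of the 6 lists covered had a median GC content of 55.3%, and 11.8% of them held the motif.

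The controls were the shortest lists and named the fewest genes. Control 1 named 2916 genes and control 2 named 3165, against 8108, 8884 and 9174 in homogenate C and 3781, 3492 and 3354 in synapse C on days 1, 6 and 20. No control value reached any value of the other 6 lists, but the controls lay far nearer to the synapse C lists. The difference in mean gene number was -502 against synapse C and -5682 against homogenate C (exact two-sided permutation p = 0.1 and 0.1, adjusted p = 0.138 over 18 tests in both cases). For peaks, homogenate C held 16228, 16298 and 16874 and synapse C 6827, 6413 and 5586, and the difference was -1486 against synapse C (exact permutation p = 0.2) and -11678 against homogenate C (p = 0.1). Of the genes in a control list, 33.7% and 37.9% had more than 1 peak, against 42.5% to 46.4% in homogenate C and 41.3% to 46.8% in synapse C.

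Peak width did not place the controls, because they differed from each other more than lists within either other group did. The median width was 193 bp in control 1 and 369 bp in control 2. Homogenate C lists had medians of 445, 413 and 421 bp, and synapse C lists of 381, 278 and 289.5 bp. Control 1 was below all others and control 2 lay within the synapse C range. The shortest peak was 150 bp in control 1 and 200 bp in each of the other 7 lists, and 52.5% of the peaks of control 1 were under 200 bp, lengths that no other list holds. The mean of the controls' medians was 281 ± 124 bp (SD, n = 2), and it differed by -145 bp from homogenate C and by -35.2 bp from synapse C (exact permutation p = 0.1 and 0.8). Without control 1 the difference from synapse C turned to 52.8 bp, so its sign rested on that list. Wide peaks were fewest in control 1 and most frequent in homogenate C: 3.85% and 17.2% of control peaks spanned at least 500 bp, against 32.0% to 40.9% in homogenate C and 17.2% to 29.0% in synapse C.

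**Figure D1:**
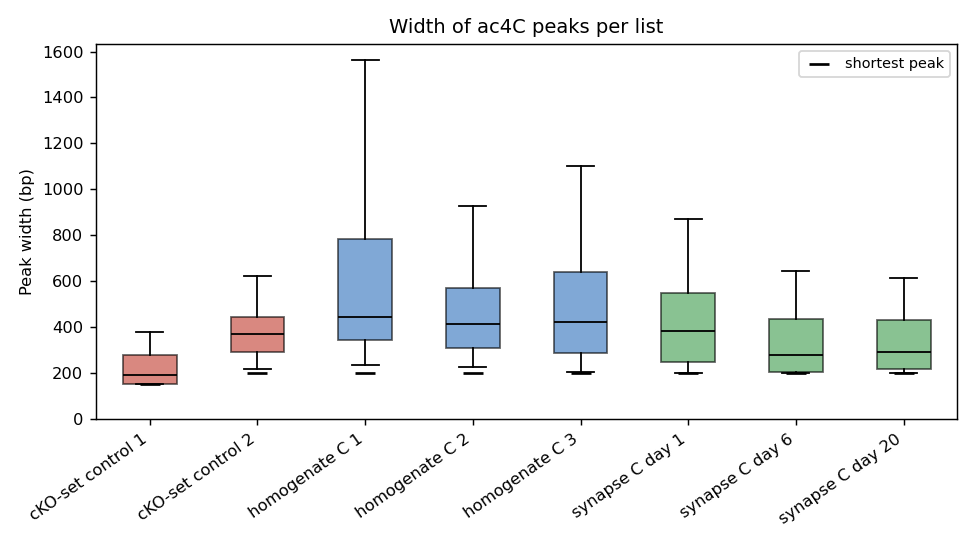
Width of ac4C peaks in bp (vertical axis) in each of the 8 lists, with the box from the 25th to the 75th percentile, the line at the median, whiskers from the 10th to the 90th percentile and a bar at the shortest peak. Control 1 has a median of 193 bp and a shortest peak of 150 bp, below every other list, and control 2 has a median of 369 bp.

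In gene names the controls shared more with the synapse C lists, also when all lists were cut to equal numbers of peaks. Genes named by both lists of a pair made up 26.3%, 28.2% and 26.0% of the genes named by either when control 1 was set against homogenate C 1, 2 and 3. Against synapse C on days 1, 6 and 20 the share was 49.5%, 47.8% and 46.1%. Control 2 gave 30.01%, 31.0% and 28.7% with homogenate C and 54.0%, 51.9% and 52.0% with synapse C, a difference of -21.9 percentage points between homogenate C and synapse C (exact permutation p = 0.1, adjusted p = 0.138). The controls shared 60.9% with each other. The order of these values cannot be read apart from list length, because a list that names many more genes caps the share. The highest value possible was 31.8% to 39.0% against homogenate C and 77.1% to 94.4% against synapse C. With equal numbers of top-ranked peaks, control 1 shared 29.5%, 33.6% and 33.6% with homogenate C and 45.3%, 43.2% and 43.7% with synapse C. Control 2 then shared 32.3%, 35.2% and 36.1%, and 47.5%, 45.3% and 47.0%. No homogenate value overlapped a synapse value in that setting, and the difference was -12.0 points (exact permutation p = 0.1).

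Seen from the controls' side alone, most of their genes were in the long homogenate C lists. Of the genes of control 1, 78.8%, 89.0% and 85.7% were named in homogenate C, and 76.0%, 71.1% and 67.8% in synapse C. Control 2 gave 82.2%, 90.05% and 86.9% for homogenate C and 77.0%, 71.9% and 70.5% for synapse C. This order, 13.1 points in favour of homogenate C (exact permutation p = 0.1), turned to -8.80 points (p = 0.1) with equal numbers of peaks. Genes named in an equally long homogenate C list then made up 46.8% to 54.3% of control 1 and 50.6% to 57.6% of control 2, against 58.5% to 62.3% and 60.9% to 64.7% for synapse C. The order thus moved with the length of the lists.

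Positions of single peaks gave no such clear order. Homogenate C 1, 2 and 3 overlapped 51.8%, 58.3% and 55.4% of the peaks of control 1 by at least 1 base, and synapse C on days 1, 6 and 20 overlapped 44.4%, 34.2% and 32.7%. For control 2 the shares were 56.0%, 60.7% and 57.3%, and 45.5%, 35.9% and 35.6%. All homogenate values thus lay above all synapse values as deposited, by 18.5 points (exact permutation p = 0.1). Control 2 overlapped 58.4% of the peaks of control 1 and control 1 overlapped 48.3% of those of control 2. As deposited, the longer homogenate C lists thus covered control 2 more fully than control 1 did. That order turned with equal numbers, where control 1 covered 53.6% of the peaks of control 2 and homogenate C 35.2% to 40.4%. With equal numbers the groups overlapped: homogenate C covered 33.1% to 37.1% of control 1 and synapse C 28.05% to 36.5%, a mean difference over both controls of 3.88 points (exact permutation p = 0.3). Synapse C on day 1 then stood among the homogenate C values. Homogenate C peaks were still the wider ones in this setting, so the bases covered were not made equal.

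Read from the other side, 12.7% to 18.8% of homogenate C peaks and 22.8% to 33.6% of synapse C peaks were overlapped by a control (difference -12.7 points, exact permutation p = 0.1), and the difference turned to 2.21 points (p = 0.4) with equal numbers. Bases covered by both lists of a pair, as a share of the bases covered by either, were 4.52% to 13.5% for homogenate C and 11.2% to 19.2% for synapse C, a difference of -5.95 points (exact permutation p = 0.1), and of -2.83 points (p = 0.2) with equal numbers. Covered length caps this share too, at 8.71% to 24.7% against homogenate C and 32.7% to 98.0% against synapse C. The controls shared 25.6% of their joint bases with each other. Among the 1084 genes with a peak in all 8 lists, homogenate C covered 64.9% to 69.1% and synapse C 46.9% to 58.5% of control peaks, while the share of the other list's own peaks that a control covered differed by 0.0509 points.

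**Figure D2:**
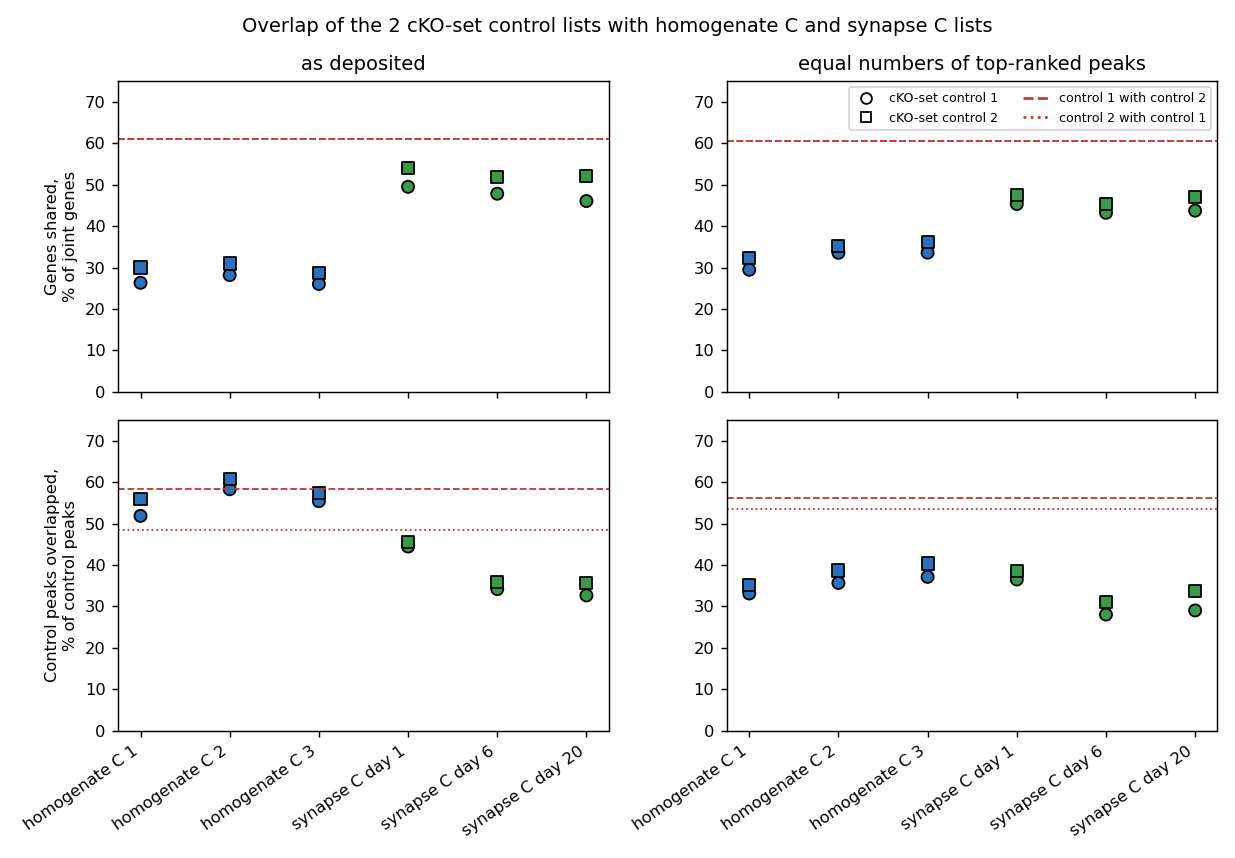
Genes shared as a percentage of joint genes (top) and control peaks overlapped as a percentage of control peaks (bottom) for control 1 (circles) and control 2 (squares) against each homogenate C (blue) and synapse C (green) list, with dashed and dotted lines for the controls against each other. In joint genes the synapse C values, from 46.1% to 54.0% as deposited, stand above all homogenate C values in both columns, while control peaks overlapped are in a complete order in the lists as deposited and overlap between the groups with equal numbers.

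The genes that carried a control peak were long, as in the synapse C lists. The median span of the genes named was 34.4 and 35.6 kb in the controls, 24.6, 24.7 and 24.2 kb in homogenate C and 35.2, 34.5 and 35.7 kb in synapse C. The controls stood 10.5 kb above homogenate C (exact permutation p = 0.1) and differed from synapse C by -0.148 kb (p = 0.7), less than the spread between lists. With equal numbers of peaks the difference from homogenate C was 9.03 kb.

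Along the gene, the controls as deposited lay within the homogenate C range at the start and at the end, and outside that of synapse C. At the start this placement did not hold with equal numbers of peaks. Peaks in the first 10% of the gene span made up 36.8% and 38.1% of the placed peaks in the controls, 36.2%, 47.0% and 43.3% in homogenate C and 34.1%, 31.6% and 33.5% in synapse C. Both controls were above all synapse C lists, by 4.35 points in the mean (exact permutation p = 0.1), and within the homogenate C range (difference -4.75 points, p = 0.4), where homogenate C 1 was below both. Among peaks with a fold of at least 5 the difference from homogenate C turned to 6.59 points (exact permutation p = 0.7). With equal numbers of peaks the first 10% held 36.8% and 40.7% in the controls. Homogenate C then had 42.8%, 54.9% and 54.8%, all above both controls, and synapse C 35.8%, 32.8% and 34.9%, all below both. Peaks in the last 10% made up 8.36% and 7.20% in the controls and 9.71%, 6.84% and 8.02% in homogenate C, against 13.2%, 14.7% and 11.8% in synapse C. Near the gene end the controls thus stood below all 3 synapse C lists (difference -5.47 points, exact permutation p = 0.1). From homogenate C this share differed by -0.412 points (exact permutation p = 0.9). Of the regions of both controls that could be placed, 46.5% were in the first 10%, but only 18.3% of those that none of the other 6 lists covered. Position is counted over the whole span of the gene, introns included, since exons and UTRs of mm10 were not used here, and the measures of gene span and position were chosen after the lists had been seen.

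**Figure D3:**
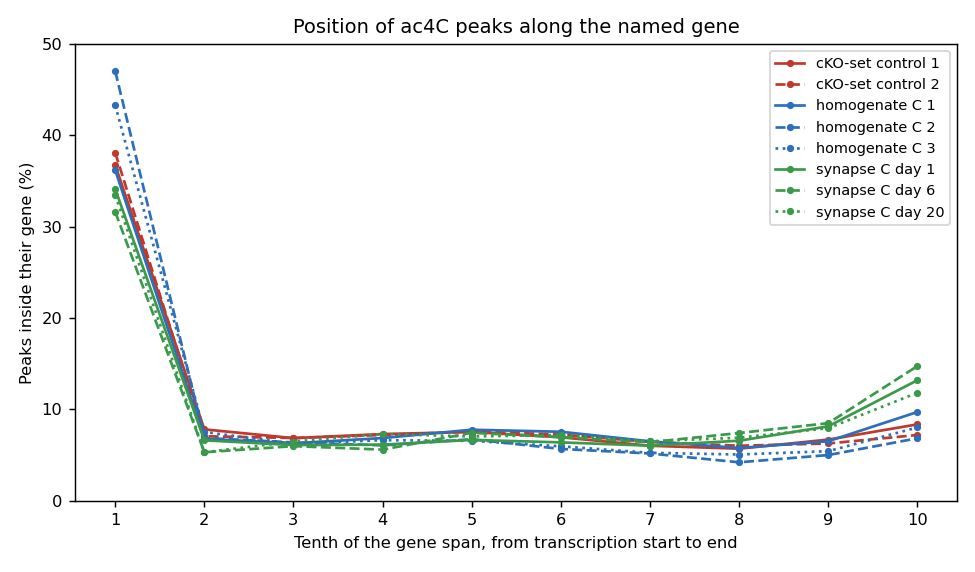
Percentage of placed peaks (vertical axis) in each of 10 equal parts of the gene span from start to end (horizontal axis) for the 8 lists, 1 line each. In the last 10% the 3 synapse C lists reach 11.8% to 14.7%, above both controls at 8.36% and 7.20%.

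A total of 2302 genes were named by both controls, and at 1960 of these (85.1%) their peaks overlapped in position. Of the 2302 genes, 2251 were also in at least 1 homogenate C list and 2205 in at least 1 synapse C list. All 3 homogenate C lists held 1749 of them and all 3 synapse C lists 1267. Genes named in both controls and in no homogenate C list numbered 51 of 11580 (0.44%), against 3367 (29.1%) in all homogenate C lists and no control. For synapse C, 97 of 5343 genes (1.82%) were in both controls and no synapse C list, and 347 (6.49%) were in all synapse C lists and no control. The controls thus named few genes that either fraction lacked. These counts depend on list length: with equal numbers, 482 genes were in both controls and no homogenate C list and 622 the reverse, and 216 and 227 for synapse C.

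Over the 8 lists together, 1084 of 11837 genes (9.16%) had a peak in every list. Highest among them by the percentile of their fold were Gsk3a, a kinase of glycogen metabolism and Wnt signalling, Zc3h13, a subunit of the complex that writes the RNA mark m6A, Pgrmc2, a haem-binding membrane protein, Trim44, Ssbp3, Hnrnpd, Plec, Basp1, Ube2h and Lingo1. The fold enrichment given here for a gene is the authors' value for its highest peak in a list, it ranks peaks only within its list, and it is not compared between lists. Hnrnpd reached 73.7 and 50.8 in the controls, and 73.7 was the highest fold of any peak in control 1. In homogenate C its fold was 152, 592 and 1008, and in synapse C 48.8, 21.2 and 28.8 on days 1, 6 and 20. Zc3h13 had folds of 17.4 and 15.3 in the controls, of 27.3, 325 and 590 in homogenate C and of 51.9, 176 and 23.5 in synapse C. All 8 lists held a peak at the same place of both genes, on chromosome 5 and chromosome 14.

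The controls and all homogenate C lists shared 41 genes (0.346% of 11837) that no synapse C list named. Farp1, a regulator of dendrites and synapses, led them with folds of 14.6 and 6.76 in the controls and 20.9, 36.4 and 23.6 in homogenate C. The controls' Farp1 peaks did not lie at the same place, and the one of control 1 was inside the gene at chr14:121101867-121102114. Grk6, a kinase that desensitizes G protein-coupled receptors, had folds of 8.86 and 11.8 in the controls and 12.8, 21.2 and 40.5 in homogenate C, at chr13:55445315-55445656, inside the gene. All 3 homogenate C lists overlapped both places.

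Gal3st3, a sulfotransferase, Sh3rf1, a scaffold of JNK signalling, and Fkbp1b, a partner of the ryanodine receptor, followed. Brf1, a subunit of a transcription factor of RNA polymerase III, Eml2, a microtubule-associated protein, Svop, a transporter-like protein of synaptic vesicles, and Snx32, a sorting nexin, came next. Control folds of these 7 genes ran from 3.44 to 13.9. At 37 of the 41 genes both controls had their peak at the same place. The synapse lists of the learning group, L, which the choice of these genes did not use, named 34 of the 41 (82.9%) in at least 1 list, so their absence was from the C lists. The synapse L list of day 6 ends within chromosome 7 and can lack genes for that reason. For comparison, of 2737 genes in all homogenate C lists and in neither a control nor a synapse C list, 80 (2.92%) were in any synapse L list.

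The mirror pattern, both controls and all synapse C lists but no homogenate C list, held 11 genes (0.0929%). Hnrnpl, shown above, had folds of 18.9 and 17.1 in the controls and 5.77, 14.3 and 14.6 in synapse C, at chr7:28810839-28811305, inside the gene. Eapp, a binding partner of E2F factors, had folds of 31.2 and 9.41 in the controls and 9.76, 4.83 and 11.02 in synapse C, with a peak at chr12:54696742-54696925, outside the span of the gene. Abl2, a tyrosine kinase that acts on actin in dendritic spines, stood at 8.17 and 9.15 in the controls and at 11.9, 3.62 and 26.2 in synapse C. At these 3 genes all synapse C lists overlapped the controls' peak.

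Further genes shared this pattern. Camk2n2, an inhibitor of the kinase CaMKII, had folds of 9.27 and 4.36 in the controls and 2.26, 16.9 and 6.53 in synapse C. Dusp6, a phosphatase of ERK, Ly6h, a modulator of nicotinic receptors, Ppp4r2, a subunit of protein phosphatase 4, Pcdh20, a protocadherin, Snn, encoding stannin, and Npy1r, a receptor of neuropeptide Y, were also among them, with control folds from 2.64 to 8.46. At least 1 homogenate L list named 9 of the 11 genes (81.8%), and 9 were in at least 1 synapse L list. For comparison, 29 genes were in all synapse C lists and in neither a control nor a homogenate C list. Of these, 16 (55.2%) were in any homogenate L list and 25 (86.2%) in any synapse L list. With equal numbers this pattern held 97 genes and the one shared with homogenate C held 28, so the order of the patterns turned with list length.

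Only the controls named 10 genes (0.0845%) among the 8 lists, a count that was 109 with equal numbers of peaks and 41 without control 2. Papss2, which makes the sulfate donor of the cell, had folds of 9.84 and 5.42 at chr19:32651841-32652025, inside the gene. Ctss, a lysosomal protease of microglia, had 12.8 and 4.39 at chr3:95529387-95529554, also inside. Pomt2, a mannosyltransferase that acts on dystroglycan, had 6.77 and 6.20 at chr12:87148539-87148746, outside the gene's span. Ube2g2, a ubiquitin-conjugating enzyme, P4ha1, a collagen prolyl hydroxylase, Cox7b, a subunit of cytochrome c oxidase, Pip5k1a, a phosphoinositide kinase, Stard10, a lipid transfer protein, Aldh1a1, an enzyme of retinoic acid synthesis, and Rrn3, an initiation factor of RNA polymerase I, made up the rest. Peaks of both controls met at the same place in 9 of the 10. None of the 6 other C lists held a peak at these places under another gene name, but L lists did name some of the genes: 6 were in at least 1 homogenate L list and 5 in at least 1 synapse L list.

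The reverse, all 6 homogenate C and synapse C lists and neither control, held 206 genes (1.74%). Eif3f, a subunit of translation initiation factor 3, led them with folds of 24.8, 79.7 and 76.0 in homogenate C and 5.19, 63.6 and 11.2 in synapse C. Selplg, a selectin ligand found on microglia, had 12.1, 38.7 and 14.4, and 26.7, 102 and 6.98. Map3k9, a kinase of JNK signalling, and Gpr26, an orphan receptor, followed. Arhgap1, a GTPase-activating protein of Cdc42, Mlip, Galnt16, Pgr, the progesterone receptor, Gpr162 and Egr3, an activity-induced transcription factor, completed the first 10. In synapse C on day 6 the fold of Egr3 was 74.1 and that of Pgr 84.7, against a median fold of 6.98 in that list. Of the 206 genes, 154 were in all 3 homogenate L lists and 202 in at least 1 synapse L list. With equal numbers 22 genes had this pattern.

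**Figure D4:**
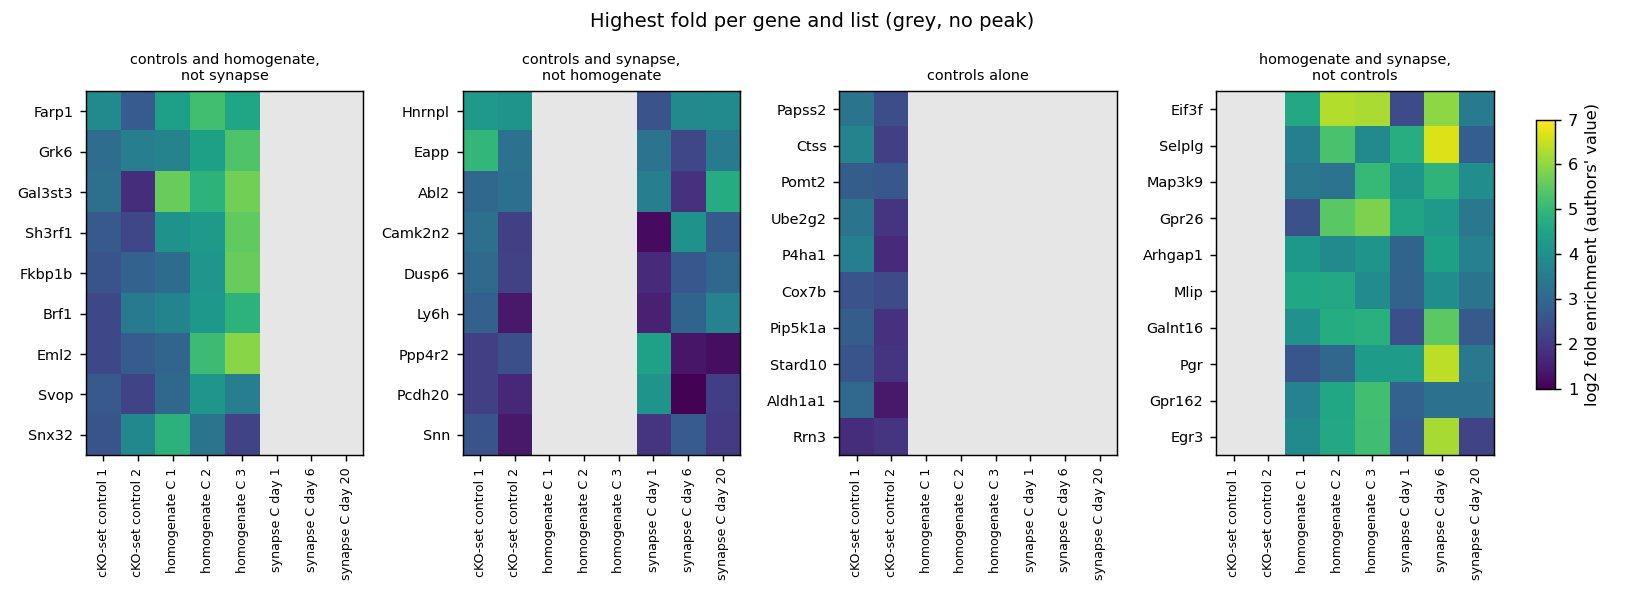
Highest authors' fold of each gene (rows) in each of the 8 lists (columns) on a log2 colour scale, grey where the list holds no peak, for up to 10 leading genes of 4 patterns of presence. Presence chose the genes, so the grey blocks are given by the rule, and the colours show that Hnrnpl has folds of 18.9 and 17.1 in the controls and that Egr3 and Selplg have high folds in synapse C on day 6.

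Groups of genes with a known role were described by how many of their members each peak list named, as a share of the members named in any of the 8. Over all 11837 genes this share was 24.6% and 26.7% in the controls, 68.5%, 75.1% and 77.5% in homogenate C and 31.9%, 29.5% and 28.3% in synapse C. Of 20 lists, the controls were below all homogenate C lists in 15 and above all of them in 0, and below all synapse C lists in 6 and above all of them in 1. With equal numbers of peaks, 15 of the 20 lists had a higher mean in the controls than in homogenate C, so the first count follows list length. The equal-number shares given below are of the members named in any list in that setting, which are fewer. Over all genes, 7022 in that setting, their means were 41.3% in the controls, 46.2% in homogenate C and 40.6% in synapse C. No p-value was computed for any list.

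In the controls, postsynaptic genes stood at or just above the synapse C range, and presynaptic and dendritic genes within or near the ranges of both fractions. Of 40 postsynaptic density and glutamate receptor genes, 70.0% and 72.5% were in the controls, 80.0% to 82.5% in homogenate C and 65.0% to 70.0% in synapse C. With equal numbers, over 38 members, the mean shares were 72.4% in the controls, 55.3% in homogenate C and 64.9% in synapse C, so the order against homogenate C turned. Dlgap4, a scaffold of the postsynaptic density, had folds of 8.86 and 6.40 in the controls, and the adhesion gene Nlgn3 had 9.999 and 7.12. The Nlgn3 peak of control 2, at chrX:101290175-101290566, lay outside the span of the gene. Homer2, a scaffold of glutamate receptors, and Grin3a, a subunit of the NMDA receptor, were in neither control. Of 47 presynaptic genes 76.6% and 72.3% were in the controls, 68.1%, 91.5% and 87.2% in homogenate C and 68.1% to 80.9% in synapse C, with folds of 33.8 and 9.35 for the vesicle protein gene Syn2. Of 29 genes of messenger RNAs known in dendrites, 82.8% and 69.0% were in the controls, 75.9% to 89.7% in homogenate C and 65.5% to 82.8% in synapse C, among them Ppp1r9b, which encodes the spine protein spinophilin, with folds of 14.8 and 8.81, and not Bdnf or Shank3, which all 6 other lists named.

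In the lists as deposited, nuclear genes of the respiratory chain were the 1 list in which both controls stood above every synapse C list. The shares of its 65 members were 53.8% and 46.2% in the controls, 60%, 80.0% and 58.5% in homogenate C and 38.5%, 36.9% and 27.7% in synapse C. Ndufs3, a subunit of complex I, had folds of 18.8 and 9.58 in the controls, 11.6, 34.8 and 21.3 in homogenate C and 3.51 in synapse C on day 1 alone. Uqcr11, of complex III, had 13.5 and 4.91 in the controls, and Ndufs8 and Ndufb7, of complex I, were in all homogenate C lists and no other. With equal numbers, over 62 members, the mean shares were 51.6% in the controls, 44.1% in homogenate C and 26.3% in synapse C. In that setting most gene lists had a higher mean in the controls than in synapse C. Among them were postsynaptic, splicing factor, translation factor, ribosomal protein and calcium, cAMP and MAPK signalling genes. Immediate early genes and microglia markers were among the lists with a lower one. Ribosomal protein genes, 52 with a peak, stood at 50% and 46.2% in the controls, within both the homogenate C values of 42.3%, 71.2% and 61.5% and the synapse C range of 30.8% to 51.9%.

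Immediate early genes, which neurons transcribe within minutes of activity, had lower shares in both controls than in each of the other 6 lists, as had all genes. Of 24 members 45.8% and 50% were in the controls, against 91.7%, 87.5% and 91.7% in homogenate C and 70.8%, 54.2% and 62.5% in synapse C. Over all genes the controls' 24.6% and 26.7% were likewise below the lowest other list, at 28.3%. Nr4a3, a nuclear receptor, had folds of 11.1 and 6.54 in the controls, and Jun, a subunit of AP-1, had 8.39 and 3.52. Ier2, Fosl2 and Npas4 were in all homogenate C lists and in none of the other 5, and Egr3 was in all 6 other lists. The leading Ier2 peak, in homogenate C 1, lay outside the span of the gene. With equal numbers of peaks, over 20 members, the mean shares were 52.5% in the controls, 68.3% in homogenate C and 66.7% in synapse C.

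Genes of chromatin and of RNA modification had lower shares in the controls and in synapse C than in homogenate C, as had all genes. Of 51 genes of chromatin and histone acetylation, 35.3% and 37.3% were in the controls and 39.2% to 43.1% in synapse C, against 80.4% to 92.2% in homogenate C. Kmt2d, Setd1b, Kat8 and Kmt2a, which modify histones, were in all 3 homogenate C lists and in no other. Arid1b and Arid1a, of the SWI/SNF remodelling complex, were in all 8 lists, with folds of 10.6 and 11.6 for Arid1b in the controls. With equal numbers, over 39 members, the mean shares of this list were 47.4% in the controls, 59.0% in homogenate C and 38.5% in synapse C. Of 29 genes of RNA modification enzymes and readers, 24.1% and 31.0% were in the controls, below 34.5% to 44.8% in synapse C and 75.9% to 93.1% in homogenate C. Zc3h13 and Alkbh5, an eraser of m6A, were in both controls, and Mettl14, a subunit of the m6A writer, was in neither. Of 53 splicing factor and hnRNP genes, 52.8% and 56.6% were in the controls, 58.5%, 75.5% and 71.7% in homogenate C and 45.3%, 60.4% and 52.8% in synapse C. With equal numbers, over 46 members, their mean was 60.9% in the controls, above 50.7% in homogenate C and 47.8% in synapse C.

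Cell type markers were given as a description of what each list holds. In bulk tissue, fewer cells of a type and less RNA per cell cannot be told apart. Of 22 markers of hippocampal excitatory neurons 50% were in each control, 8 in both and 8 in neither. Hpca, a calcium sensor, and Wfs1, a marker of CA1, were in both. Pou3f1, Neurod2 and Tbr1, which encode transcription factors, and C1ql2, which encodes a secreted synaptic protein, were in neither, although at least 2 homogenate C lists named each of them. Slc17a7, the vesicular glutamate transporter of these cells, had folds of 31.6 and 9.96 in the controls. Of 26 astrocyte markers 61.5% and 38.5% were in the controls, the widest gap between them, and Slc1a2, a glutamate transporter, was in all 6 other lists and in neither control.

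Microglia markers, 19 with a peak, stood at 15.8% and 21.1% in the controls, below 42.1% to 47.4% in synapse C and 52.6% to 63.2% in homogenate C. Cx3cr1, a chemokine receptor, Ctss and C1qa, of complement, were in both controls, while P2ry12, Tmem119 and Selplg were in neither. With equal numbers, over 12 members, the mean shares were 29.2% in the controls, 25% in homogenate C and 63.9% in synapse C, so the controls were no longer below homogenate C. Of 15 endothelial and mural markers 20.0% and 6.67% were in the controls, 46.7% to 66.7% in homogenate C and 0% to 6.67% in synapse C. Of 14 choroid plexus and ependymal markers 7.14% and 7.14% were in the controls, 64.3% to 71.4% in homogenate C and 0% to 7.14% in synapse C. For these 2 lists the controls' shares were nearer to those of synapse C, as they were over all genes. The shares over all genes were 24.6% and 26.7% in the controls, 28.3% to 31.9% in synapse C and 68.5% to 77.5% in homogenate C. With equal numbers too few members of the 2 lists (6 and 3) were named in any list to compare. The part of these 2 lists in the overlap of gene names was not tested.

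**Figure D5:**
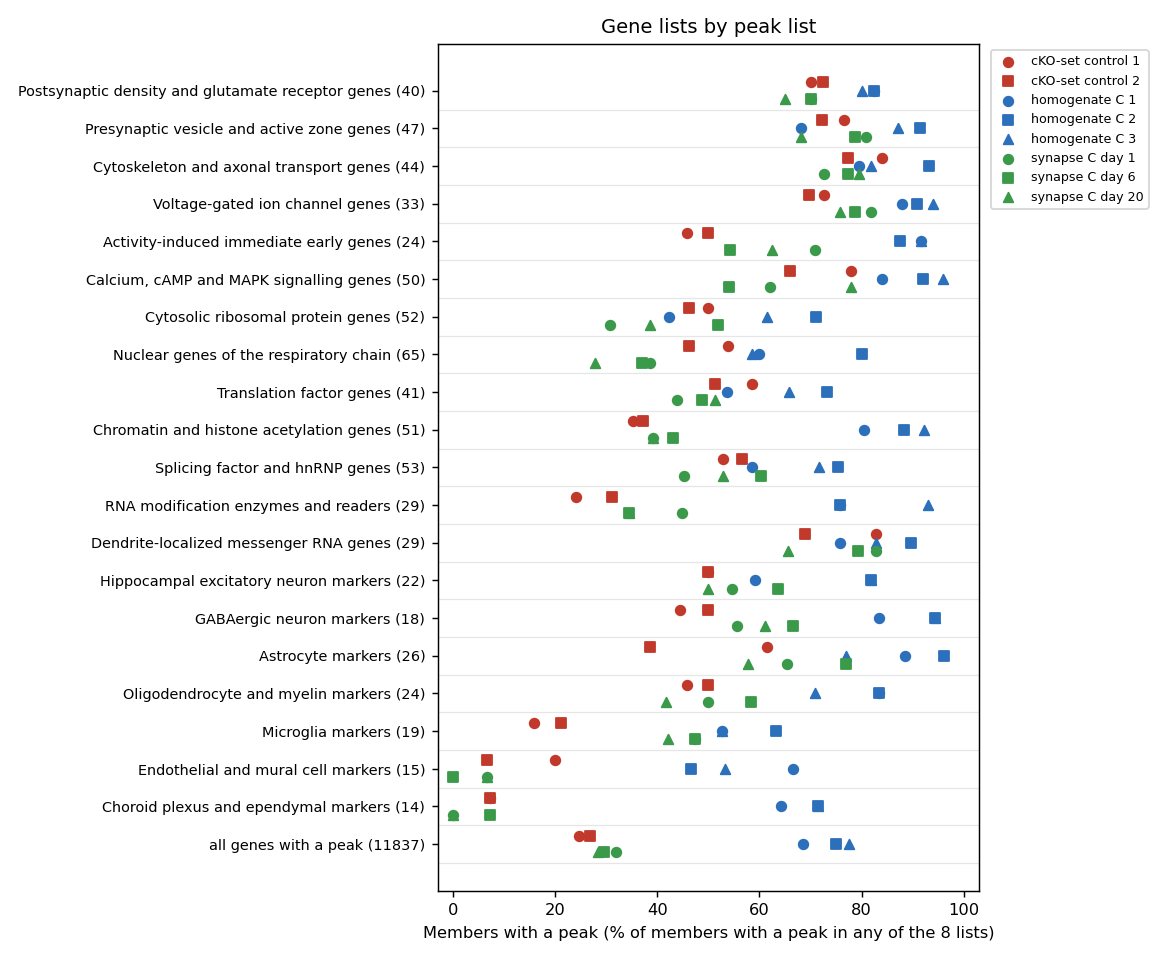
Members named in a peak list as a percentage of the members named in any of the 8 (horizontal axis) for 20 gene lists and all genes (rows, number of members with a peak in brackets), with the controls in red, homogenate C in blue and synapse C in green. Microglia markers, at 15.8% and 21.1%, and immediate early genes, at 45.8% and 50%, lie below all other lists in the controls, as do all genes at 24.6% and 26.7%, and respiratory chain genes, at 53.8% and 46.2%, lie above all synapse C lists.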

How the data were processed

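Peaks of the 8 captured libraries were compared as deposited. The submitters' processing notes name mm10 as the build and HISAT2 2.0.4, cutadapt 1.9.3 and FastQC as tools, and the peak caller is not given in the sources used here. The fold enrichment of a peak and its p-value and q-value, both as -log10, are the authors' own, per the file headers. No read counts are given in these lists, which leaves the depth of each sample unknown, and no interval was computed. Of 13289 gene names, 12924 were current RefSeq symbols of GRCm38.p6, 214 were updated through a synonym and 151 were kept. Homogenate C lists held 53, 119 and 111 updated and 108, 6 and 4 kept names, the controls and synapse C lists 0 to 6 and 0. Peaks inside the named gene made up 88.9% and 89.4% in the controls, 72.4% to 79.4% in homogenate C and 81.5% to 82.0% in synapse C. Comparisons of gene names carry these differences.

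Python 3.11.15 with pandas 2.3.3 and numpy 2.4.6 was used. Peaks overlapped when they shared at least 1 base. Differences in means over lists were tested with exact two-sided permutation over 10 assignments (2 against 3 lists) or 20 (3 against 3), with Benjamini-Hochberg adjustment over 18 tests and a threshold of 0.05. The smallest adjusted p was 0.138, so no difference passed. Patterns of presence were counted without a test. Genes named were the first 10 per pattern by the mean percentile of the fold within the lists that hold a peak, and up to 4 members per gene list in both controls and 4 in neither, predicted symbols left out, and a few genes meeting this rule are not reported here. For the sequences, the top region of each class with a start window was taken, and start windows on chromosome 18 were not used. The members, lists and tests were chosen with earlier results of these data known. The scripts were tested on simulated lists.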

Additional observations from a re-analysis of the deposited data

How the results depend on the processing

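No difference over lists could pass the threshold at this number of lists, so tested differences are compared by direction only, and counts by size. A tested difference thus counts as the same whenever its sign held, even where it shrank, as that of control peaks overlapped did with equal numbers. Over all alternatives, 304 values of the main results stayed the same, 48 moved and 12 reversed. With equal numbers of top-ranked peaks the own peaks overlapped gave 2.21 points, the control genes shared -8.80 points, the last 10% against homogenate C 1.39 points, and gene span against synapse C 0.288 kb. In that setting 482 genes were in the controls and not homogenate C, 622 the reverse, 216 in the controls and not synapse C, 227 the reverse, 97 in the controls and synapse C alone, 109 in the controls alone, 22 in neither control and all others, 484 in every list, and 15 gene lists were higher in the controls than in homogenate C. With a fold of at least 5, gene span against synapse C was 0.239 kb, the first 10% against homogenate C 6.59 points, and the counts were 24 (controls, not homogenate C), 2147 (the reverse), 27 (controls and homogenate C alone), 6 (controls and synapse C alone), 125 (neither control) and 205 (every list). With a -log10 q of at least 5, 7 genes were in the controls and synapse C alone. With L in place of C lists, 22 genes were in the controls and not homogenate, and 4 in the controls and synapse alone. In genes with a peak in all 8 lists the own peaks overlapped differed by 0.0509 points.

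Leaving out 1 list at a time gave 51 to 129 genes in the controls and not homogenate C (129 without control 2), 97 to 225 in the controls and not synapse C (225 without synapse C day 1), and 347 to 628 for its reverse (628 without control 2). It gave 46 to 116 for controls and homogenate C alone (116 without synapse C day 6), 13 to 28 for controls and synapse C alone (28 without homogenate C 2), 12 to 41 for the controls alone (41 without control 2) and 214 to 429 for neither control (429 without control 2). Fewer lists to satisfy can only add genes. Median width against synapse C ran from -123 to 52.8 bp, turning without control 1, and against homogenate C from -233 to -57.3 bp. Gene span against synapse C ran from -0.740 to 0.444 kb, turning without control 1 and, at 0.138 kb, without synapse C day 20. The last 10% of the gene against homogenate C ran from -1.09 to 0.349 points, turning without homogenate C 1 and, at 0.170 points, without control 2. With the replicate block over numbers 1 and 2 the differences from homogenate C were -11474 peaks, -5456 genes and -148 bp (exact p = 0.5 each, the smallest that 2 pairs allow). The pairing correlations of same-numbered lists were -0.0326 and -0.0146 over 11837 genes. Against each homogenate C list, control 1 and control 2 had the same value with opposite sign, as deviations from a mean of 2 lists must. These correlations therefore cannot show whether the numbers pair the samples. The cause of these changes was not tested, apart from list length, which equal numbers change by construction. Depth is unknown, so a missing peak is not an absent mark.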

Other observations

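Genes in 1 control only numbered 614 for control 1 and 863 for control 2, beside the 2302 in both. The regions of both controls that lay in all 3 homogenate C lists and no synapse C list were led by Tpd52, Nsun2 and Mphosph8, with highest control folds of 25.1, 19.7 and 14.3. Those in all 3 synapse C lists and no homogenate C list were led by Hnrnpl, Eapp and Lsamp, with 18.9, 31.2 and 12.2. These regions were ranked by the percentile of the fold within the control lists.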
